A study of Mus musculus with 8 samples.

Results

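Stat5b, Cish, Socs1, Socs3, Pim1, Pim2, Pim3 and Osm are genes of the STAT5 transcription factor branch of cytokine signalling, its SOCS-family brakes, the PIM kinases and a cytokine that it induces. They were chosen by name, as the rows of the deposited table that carry 1 of 10 gene symbols. Rows were found for 8 of the 10 among 19703 genes. Stat5a and Socs2 had no row in the table used here and are not analysed here. All 8 passed the filter on low values (a mean of at least 10 normalized counts).

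The cells were regulatory T cells (Tregs, the FOXP3-positive CD4 T cells that restrain immune responses) sorted from mice of the Foxp3-GFP strain, titled WT (wild type) in every sample, in which a fluorescent reporter marks FOXP3-expressing cells. All were stimulated with beads carrying antibodies to CD3 and CD28, with IL6, IL23 and IL1B added, and messenger RNA was sequenced on day 6. In the FcCD70 group (3 libraries with a column, of 4 samples in the labels) the culture also contained FcCD70, a soluble form of the ligand of the costimulatory receptor CD27. The untreated group (4 libraries) had the same culture without it. The comparison asks which genes respond to CD27 signalling in these cells. The treatment field contradicts the sample title in all 8 samples. Libraries were grouped by title, as the names of the columns are, and every direction given for FcCD70 rests on those titles being correct. The labels name no separate mice or cultures. The p-values therefore cover the spread between these libraries alone, which may be technical.

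The libraries held 18159685 to 23527899 reads assigned to genes. Treg and T cell markers were present in every library: Foxp3 ranged from 136 to 330 and Cd27 from 284 to 348 RPM (reads scaled to a fixed library total). Among markers of other cells, Ncr1 was at 0 in all 7 libraries, Adgre1 in 6, Pax5 in 4 and Klrb1c in 2. Others had reads in every library: Cd8b1 at 5.53 to 9.57 RPM, Cd79b at 5.02 to 9.36 and Cd68 at 2.91 to 5.93. The summed level of the 4 myeloid markers with a row was 3.08 to 5.25 RPM in the FcCD70 libraries and 4.43 to 6.09 in the untreated libraries. Ighm, the immunoglobulin heavy chain gene on the B cell list, was at 1585 to 1842 RPM in every library, and its source was not tested. The other B cell markers summed to 7.59 to 10.3 in the FcCD70 libraries and 7.35 to 13.5 in the untreated libraries. The FcCD70 library numbered 2 stood apart: it held the lowest or the highest value of the 7 libraries for 55.7% of the 11083 genes tested. Its Foxp3 value, 2788 normalized counts, was the lowest of the 7. Foxp3 had 5881 and 5948 in FcCD70 libraries 1 and 3 and 4811 to 6585 in the untreated group. Of the 8 genes, Stat5b and Cish were lowest in that library, as were 28.4% of all genes tested.

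Interleukin-2 and related cytokines bind receptors that share the common gamma chain and activate the kinases JAK1 and JAK3, which phosphorylate STAT5A and STAT5B. Phosphorylated STAT5 enters the nucleus and binds paired half-sites, and in Tregs it sustains Foxp3. Among the genes it induces are those of CISH and the SOCS proteins, which bind activated receptors or JAKs and damp the signal, and of the PIM kinases, serine/threonine kinases that favour survival and growth and are controlled mainly through their abundance. IL-6 acts through STAT3, which is known to induce Socs3, Pim1 and other genes of this group as well.

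The half-sites that STAT5 and STAT3 bind form the motif TTCNNNGAA, which reads the same on both strands. It was searched in 300-base windows around annotated gene starts (250 bases before and 50 after the start, from RefSeq, build GRCm38.p6). Windows were found for 7 of the 8 genes, 9 windows in all. The window of Cish held the motif at bases 1 to 9 and again at bases 12 to 20, counted from 1 at the annotated start, inside an exon and UTR of Cish in the GENCODE annotation (chr9:107296659-107296667 and chr9:107296670-107296678). The window of Socs3 held 1 match, which begins at position -154 from the annotated start and lies within Socs3, in no exon, in GENCODE (chr11:117969512-117969520, read on the minus strand). Among all 32851 windows 8.30% held the motif. The 30 bases around these matches are shown because they are the members whose windows hold the motif, with the half-sites in capitals and the 3 free bases between them in lower case.
Cish (chr9:107296654-107296683, plus strand): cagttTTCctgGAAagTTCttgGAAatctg
Socs3 (chr11:117969501-117969530, minus strand): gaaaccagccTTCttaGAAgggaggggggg
The windows of Stat5b, Socs1, Pim1, Pim2 and Pim3 held no such match, which says only that these letters are not in those windows. A match is a description of the sequence, not a measured binding site.

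Levels of the 8 genes spanned a wide range. On the scale of normalized counts per kilobase of the longest principal transcript, Pim1 was highest at 7259 ± 1299 (SD over 7 libraries), above 98.7% of the 10960 tested genes with a length. Socs3 followed at 4205 ± 423, then Pim2 at 2567 ± 431, Stat5b at 1716 ± 88.4 and Cish at 977 ± 229. Each of these 5 genes lay above the next gene down the order in 7 of 7 libraries, with no overlap of their ranges. The lower levels were 288 ± 38.4 for Osm, 213 ± 84.4 for Socs1 and 157 ± 20.9 for Pim3, whose neighbours in the order overlapped. Osm exceeded Socs1 in 6 of 7 libraries and Socs1 exceeded Pim3 in 5 of 7, so the order among these 3 is not settled by the spread. The place of Pim2 depends on the length used: with the length of all its annotated exons its mean was 1022 per kilobase, below the 1615 of Stat5b on that scale. Cish fell to a mean of 434 on that scale, above the 288 of Osm. The absence of overlap holds for the principal transcript length, and ranges on the other scale are not given.

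**Figure D1:**
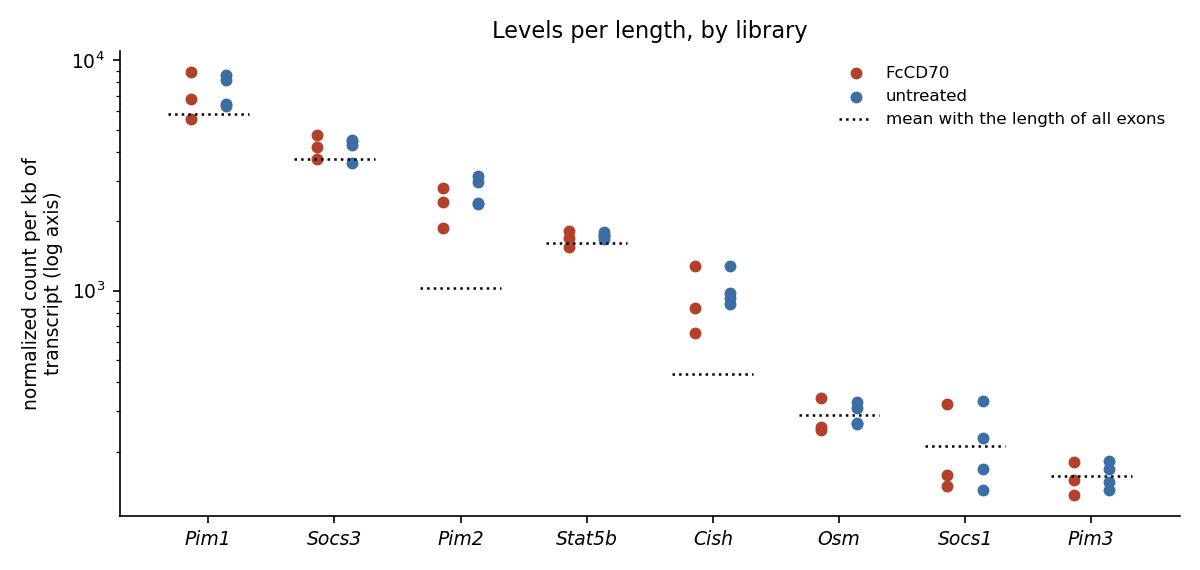
Normalized counts per kilobase of the longest principal transcript (vertical log axis) for each of the 8 genes, ordered by their mean. Each point is 1 library, FcCD70 left of untreated within a gene, and dotted lines give the mean over 7 libraries with the length of all annotated exons. Pim1 lies at the top with a mean of 7259 and Pim3 at the bottom with 157, and the exon length moves Pim2 to 1022 and Cish to 434.

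With FcCD70, none of the 8 genes differed beyond the spread between libraries. In limma with the replicate number as a block, 0 of the 8 had an adjusted p under 0.05, as had 0 of the 11083 genes tested (0%). At an unadjusted p under 0.05 the counts were 0 of 8 genes and 188 of 11083 (1.70%). The edgeR test on the reads recovered from the table called 0 genes, and DESeq2 called 1 (0.00902%), Il17f. Of the 8 log2 fold changes 7 lay below 0 (50.9% of all genes tested did), with a median of -0.03 against -0.0035 over all genes tested. The ranges of the groups overlapped in 8 of 8, and failed to overlap for 2.53% of all genes tested. None of the 8 was higher with FcCD70 in every pair (9.03% of all genes tested were). Cish and Pim2 were lower in every pair, as were 9.61% of all genes tested.

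Stat5b encodes one of the closely related STAT5 proteins (ENSMUSG00000020919, chr11:100780731-100850724, minus strand, GRCm38). It had 8829, 8103 and 9486 normalized counts in the FcCD70 libraries numbered 1 to 3, against 9403, 9081, 8958 and 8765 in the untreated libraries numbered 1 to 4. It varied least of the 8 genes, and the FcCD70 libraries held both its lowest and its highest value. Its log2 fold change was -0.06 (SE 0.13, 95% interval -0.35 to 0.23, limma adjusted p = 0.9998), so the interval spans a fold of 0.786 to 1.18. Stat5a is a close paralog, and reads from stretches they share can be assigned to either gene, so the Stat5b counts are uncertain to that extent.

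Cish encodes an SH2-domain protein that STAT5 induces and that binds cytokine receptors and the T cell receptor pathway (ENSMUSG00000032578, chr9:107296026-107302784, plus strand). It had 2404, 1868 and 3638 normalized counts in the FcCD70 libraries numbered 1 to 3, against 2789, 2493, 3648 and 2645 in the untreated libraries numbered 1 to 4. The FcCD70 value was the lower one in each of the 3 pairs that share a number, which was so for 9.61% of all genes tested, but the difference in the pair numbered 3 was -0.0043 on the log2 scale, against -0.42 in the pair numbered 2. The log2 fold change was -0.21 (SE 0.13, 95% interval -0.50 to 0.08, limma adjusted p = 0.9998). The low value of 1868 came from the FcCD70 library numbered 2, in which 28.4% of all genes tested were lowest. Among them were Il2rb, the signalling beta chain of the IL-2 receptor, and also Il2ra, Jak1, Jak3 and Stat3. The shared gamma chain gene Il2rg, at 6741 normalized counts, was not. Nor were Jak2, Il7r, Il15ra and Il9r, which are also receptor or kinase genes upstream of STAT5. Il2rb had 5090, 3901 and 5458 normalized counts in the FcCD70 libraries numbered 1 to 3 and 5025 to 5933 in the untreated group. Without the FcCD70 library numbered 2, in a fit with a covariate for the numbers 3 and 4 in place of the block, the log2 fold change of Cish was 0.05 (95% interval -0.16 to 0.26). With the covariate and all 7 libraries it was -0.10, and in the block fit without the libraries numbered 2 it was -0.11. Without the block it was -0.17 over 7 libraries and -0.43 without the FcCD70 library numbered 3 (unadjusted p = 0.0306, limma adjusted p = 0.649). In the GENCODE annotation 740 exon bases of Cish and Gm17040 or Gm17041, on the opposite strand, overlap. Whether the counting used strand is not given in the sources used here. Reads of that overlap may be shared.

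The SOCS genes had small fitted differences with FcCD70. Socs1 encodes an inhibitor of JAK kinases (ENSMUSG00000038037, chr16:10782240-10785536, minus strand). It had 412, 459 and 938 normalized counts in the FcCD70 libraries numbered 1 to 3, against 490, 397, 969 and 669 in the untreated libraries numbered 1 to 4. The libraries numbered 3 or 4 were high in both groups, and the groups overlapped almost wholly. Its log2 fold change was -0.03 (SE 0.16, 95% interval -0.38 to 0.32, limma adjusted p = 0.9998). With the covariate in place of the block it was 0.08, so no direction can be given for Socs1.

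Socs3 encodes the brake on the IL-6 receptor chain gp130 and on STAT3 (ENSMUSG00000053113, chr11:117966079-117970047, minus strand). It had 10699, 9484 and 12086 normalized counts in the FcCD70 libraries numbered 1 to 3, against 10896, 9114, 11475 and 11364 in the untreated libraries numbered 1 to 4. It was the one gene of the 8 fitted above 0, at 0.04 on the log2 scale (SE 0.13, 95% interval -0.25 to 0.32, limma adjusted p = 0.9998). In both groups the library numbered 2 was the lowest.

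**Figure D2:**
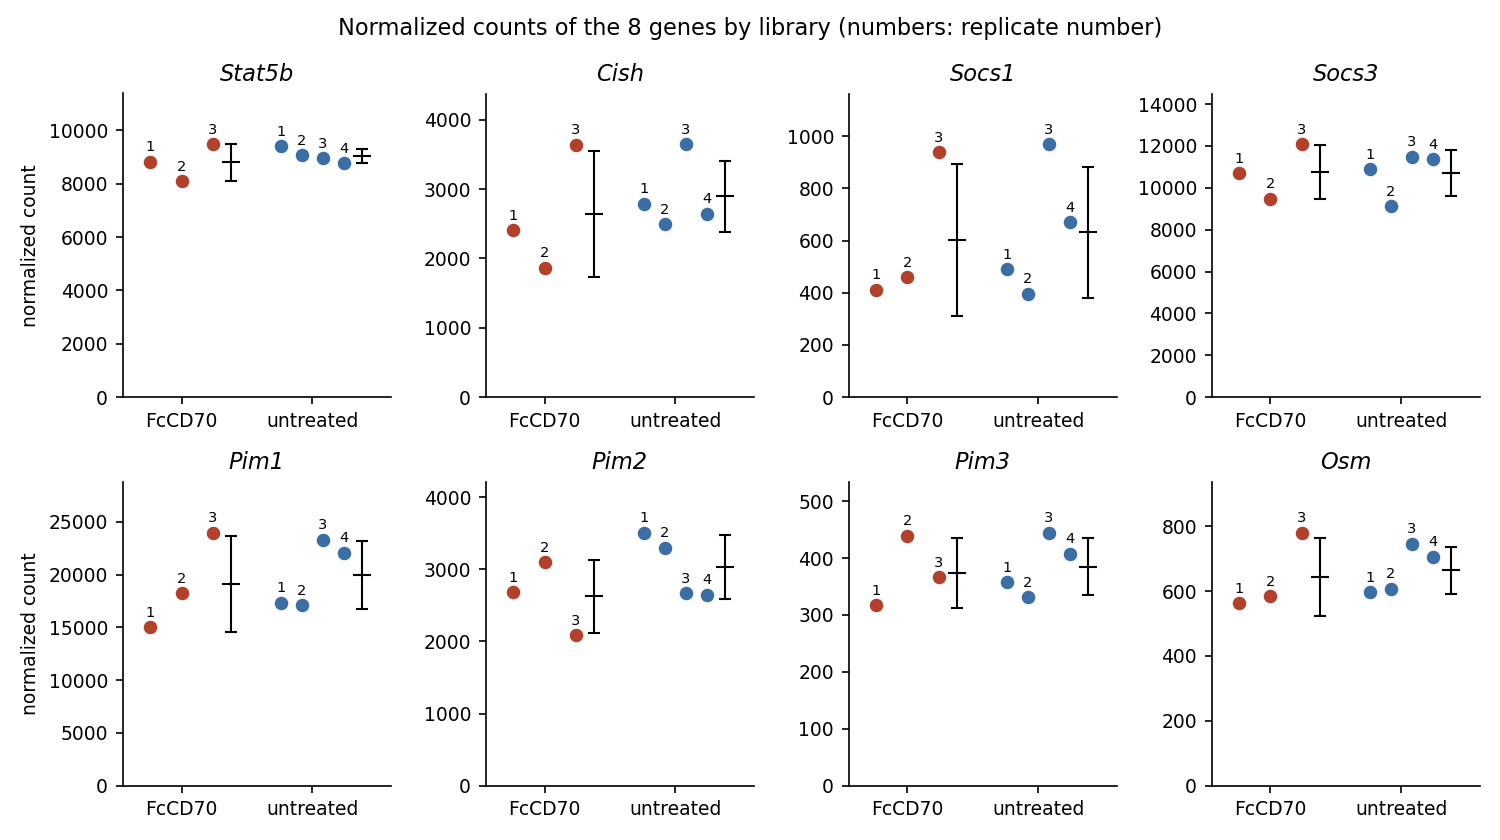
Normalized counts (vertical axes from 0) of the 8 genes in the FcCD70 libraries (left in each panel) and the untreated libraries (right), with the replicate number above each point and the mean with SD as a black bar (n = 3 and n = 4). In each panel the ranges of the groups overlap, and for Pim2 the lowest value, 2088, is the FcCD70 library numbered 3.

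Among the PIM kinase genes, Pim2 showed the largest difference of the 8 genes. Pim2 (ENSMUSG00000031155, chrX:7878262-7883432, plus strand) encodes a kinase that promotes growth and survival of lymphocytes. It had 2686, 3100 and 2088 normalized counts in the FcCD70 libraries numbered 1 to 3, against 3508, 3301, 2668 and 2648 in the untreated libraries numbered 1 to 4. The FcCD70 library was the lower one in 3 of 3 pairs (9.61% of all genes tested), at -0.39, -0.09 and -0.35 on the log2 scale in the pairs numbered 1, 2 and 3, while the ranges of the groups overlapped. The mean was 2625 ± 509 (SD, n = 3) with FcCD70 and 3031 ± 439 (SD, n = 4) untreated.

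The log2 fold change of Pim2 was -0.28 (SE 0.12, 95% interval -0.56 to 0.0036), a fold of 0.826, with an unadjusted p of 0.0525 and an adjusted p of 0.9998 in limma. In the authors' deposited table it was -0.30 (SE 0.11, unadjusted p = 0.00731, adjusted p = 0.99999) after turning its sign to FcCD70 minus untreated. The authors' mean for Pim2 was 2756 normalized counts, which is not the mean over the libraries analysed here. Their fit may therefore rest on another set of libraries, so its p-value cannot be set directly against that from limma. An exact two-sided permutation test of the group labels, without regard to the pairs, gave p = 0.343, where 3 against 4 libraries allow no p below 0.0571.

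Whether Pim2 passed depended on the libraries numbered 2 and on the fit. Without the FcCD70 library numbered 2, with the covariate for the numbers 3 and 4 (3 residual degrees of freedom), Pim2 passed in limma at -0.34 on the log2 scale (SE 0.06, 95% interval -0.47 to -0.22, adjusted p = 0.0478). That fit called 6 of 11103 genes (0.0540%). With both libraries numbered 2 left out of the block fit it also passed (log2 fold change -0.37, adjusted p = 0.0262), among 19 of 11090 genes (0.171%). Neither of these calls stands with all 7 libraries. There the covariate fit gave Pim2 a log2 fold change of -0.28 (unadjusted p = 0.0116, limma adjusted p = 0.992). Other libraries moved the value toward 0: without the block it was -0.22 over 7 libraries, -0.06 without the FcCD70 library numbered 3 (unadjusted p = 0.690) and -0.14 without the untreated library numbered 1 (limma adjusted p = 0.919 and 0.99988). Without the FcCD70 library numbered 2 and with neither block nor covariate, the limma adjusted p was 0.99998 at a log2 fold change of -0.34.

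Pim1, a kinase gene induced by STAT5 and STAT3 (ENSMUSG00000024014, chr17:29490753-29496112, plus strand), had 15005, 18218 and 23986 normalized counts in the FcCD70 libraries numbered 1 to 3, against 17359, 17100, 23331 and 22093 in the untreated libraries numbered 1 to 4. Its log2 fold change was -0.03 (SE 0.15, 95% interval -0.36 to 0.30, limma adjusted p = 0.9998). The FcCD70 group held both the lowest and the highest value of the 7 libraries. In GENCODE 488 exon bases of Pim1 and Gm26885, on the opposite strand, overlap, and reads there may be shared. Pim3, the third kinase gene of the family (ENSMUSG00000035828, chr15:88862186-88865726, plus strand), had 317, 439 and 367 normalized counts in the FcCD70 libraries numbered 1 to 3, against 358, 331, 445 and 407 in the untreated libraries numbered 1 to 4. Its pairs disagreed, with 0.41 in the pair numbered 2 and -0.17 and -0.28 in those numbered 1 and 3. The log2 fold change of Pim3 was -0.01 (SE 0.19, 95% interval -0.44 to 0.41, limma adjusted p = 0.9998), the widest interval of the 8.

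Osm encodes oncostatin M, a cytokine of the IL-6 family and a known STAT5 target (ENSMUSG00000058755, chr11:4236420-4241026, plus strand). It had 562, 584 and 780 normalized counts in the FcCD70 libraries numbered 1 to 3, against 598, 607, 746 and 706 in the untreated libraries numbered 1 to 4. The libraries numbered 3 or 4 were the high ones in both groups. Its log2 fold change was -0.03 (SE 0.14, 95% interval -0.34 to 0.29, limma adjusted p = 0.9998).

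The receptor of oncostatin M pairs gp130, encoded by Il6st, with the specific chain encoded by Osmr. Osmr was near the limit of detection. It had 0.882 normalized counts, worth 1 read, in the FcCD70 library numbered 3 and 0 in the other FcCD70 libraries, against 5.05 and 0.971 in the untreated libraries numbered 2 and 3 and 0 in those numbered 1 and 4. A limit of 3 reads corresponds to 2.61 to 3.37 normalized counts, so the 1 value above it was that of the untreated library numbered 2. Il6st had 4876 ± 1162 (SD, n = 3) normalized counts with FcCD70 and 5537 ± 232 (SD, n = 4) untreated.

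**Figure D3:**
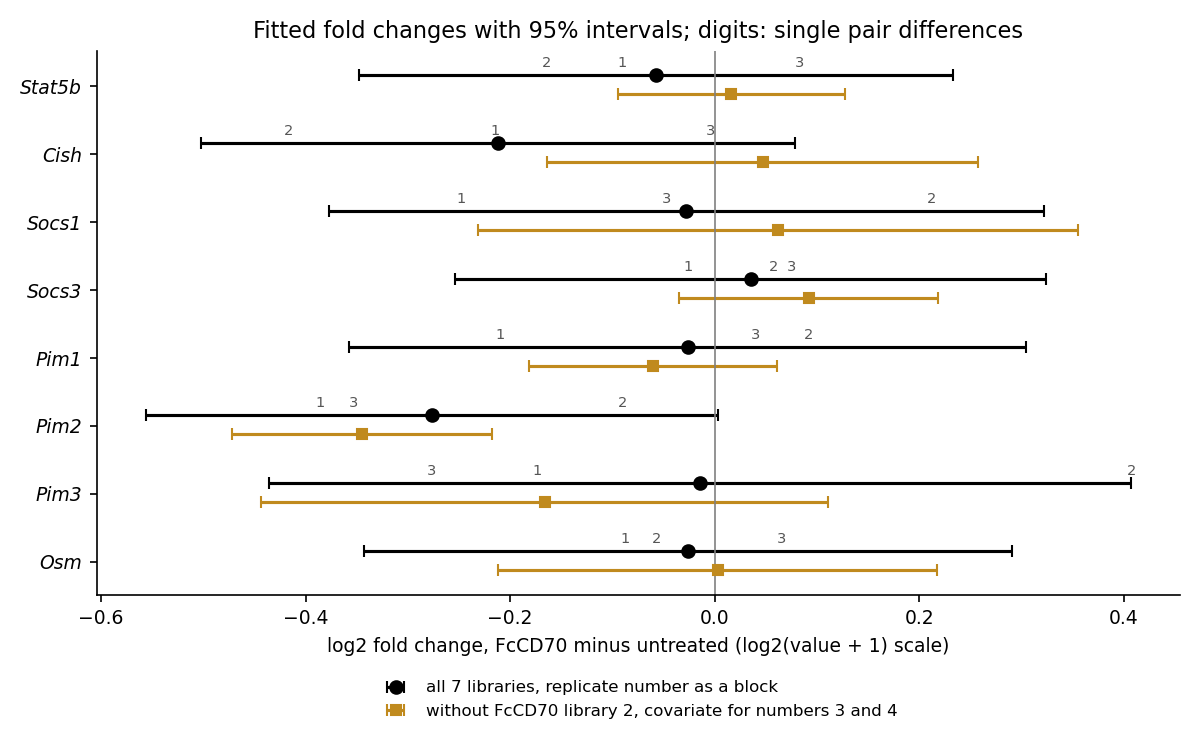
Log2 fold changes, FcCD70 minus untreated, on the log2(value + 1) scale (horizontal axis) for each of the 8 genes, with 95% intervals. Black circles are the fit over 7 libraries with the replicate number as a block, yellow squares the fit without the FcCD70 library numbered 2 and with a covariate for numbers 3 and 4 in place of the block, and the digits give the differences within the pairs numbered 1, 2 and 3. For Pim2 the black interval runs from -0.56 to 0.0036 and the yellow one from -0.47 to -0.22, while the yellow value of Cish, 0.05, lies above 0.

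For several of the 8 genes the libraries fell apart by replicate number. For 5 of the 8, the 3 libraries numbered 3 or 4 did not overlap the 4 numbered 1 or 2, as was so for 22.2% of all genes tested. Of these, Socs1, Socs3, Pim1 and Osm were higher in the libraries numbered 3 or 4 (11.1% of all genes tested) and Pim2 was lower (11.1%). The labels do not say what the numbers stand for, and this division of them was taken up with the data in view, so these values are a description without a test. The FcCD70 library numbered 3 held the lowest or the highest value for 5 of the 8 genes, as it did for 26.7% of all genes tested.

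Socs1 had the widest gap, with 669 to 969 normalized counts in the libraries numbered 3 or 4 against 397 to 490 in those numbered 1 or 2, a mean log2 difference of 0.95. Pim1 had 22093 to 23986 against 15005 to 18218, a log2 difference of 0.45. For Osm the ranges were 706 to 780 against 562 to 607 (log2 difference 0.34), and for Socs3 they were 11364 to 12086 against 9114 to 10896 (0.22). Both SOCS genes, Pim1 and Osm lay on one side. Pim2 lay on the other, with 2088 to 2668 normalized counts against 2686 to 3508, a log2 difference of -0.35. Its highest value in the libraries numbered 3 or 4 and its lowest in those numbered 1 or 2, 2668 and 2686, were nearly the same. Cish (2645 to 3648 against 1868 to 2789), Pim3 (367 to 445 against 317 to 439) and Stat5b (8765 to 9486 against 8103 to 9403) overlapped.

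For these 5 genes the absence of overlap fixes the sign of the difference within each group, so the sizes are given as a description. Among FcCD70 libraries, number 3 minus the mean of numbers 1 and 2 was 1.11 for Socs1, 0.54 for Pim1, 0.44 for Osm, 0.26 for Socs3 and -0.47 for Pim2 on the log2 scale. Among untreated libraries, numbers 3 and 4 minus 1 and 2, they were 0.87, 0.40, 0.27, 0.20 and -0.36. The ratio of Pim1 to Pim2 restates their opposite directions, free of library scaling. Pim1 had 5.59, 5.88 and 11.5 reads per Pim2 read in the FcCD70 libraries numbered 1 to 3, against 4.95, 5.18, 8.75 and 8.34 in the untreated libraries numbered 1 to 4.

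Markers of dividing cells moved with the replicate number too. The summed level of 6 such markers was 368, 372 and 479 RPM in the libraries numbered 3 or 4 (FcCD70 3, untreated 3 and untreated 4) and 586 to 963 in those numbered 1 or 2. Of the 6, 5 did not overlap and were lower in the libraries numbered 3 or 4, as were 11.1% of all genes tested. The sum was also lower with FcCD70 in 3 of 3 pairs, as were Pim2 and 9.61% of all genes tested. It was 681, 586 and 368 RPM in the FcCD70 libraries numbered 1 to 3, against 963, 847 and 372 RPM in the untreated libraries with the same numbers. The part of these markers in the differences of the 5 genes, or in that of Pim2 between the groups, was not tested. In bulk libraries fewer cells of a kind and less RNA per cell cannot be told apart.

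**Figure D4:**
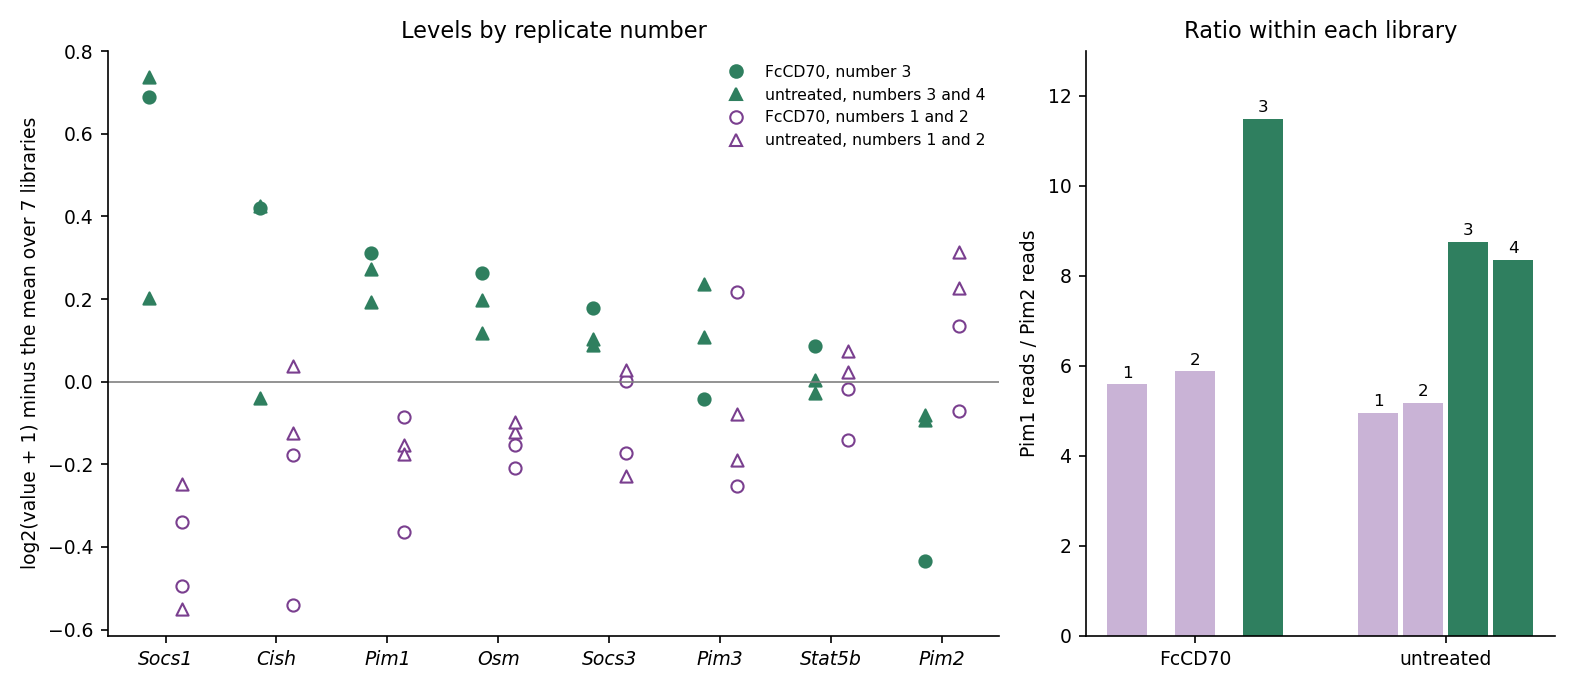
Left, log2(value + 1) of each gene minus its mean over 7 libraries (vertical axis), with filled green symbols for the libraries numbered 3 or 4 and open purple symbols for those numbered 1 or 2 (circles FcCD70, triangles untreated). Right, Pim1 reads per Pim2 read in each library, with the replicate number above the bar. Socs1, Pim1, Osm and Socs3 are higher in the libraries numbered 3 or 4 and Pim2 is lower, and the ratio is 8.34 to 11.5 there against 4.95 to 5.88.

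The stretches just upstream of Pim1 and Pim2 are shown because the 2 genes lay on opposite sides of this division. Both are from RefSeq windows on GRCm38.p6 and end before the first annotated base of the gene in either annotation. Neither holds TTCNNNGAA or a match to the NF-kB consensus on either strand (8.46% of all 32851 windows held the latter motif). The window of Pim3, not shown, held a match to the NF-kB consensus on the opposite strand, at position -136 from the annotated start (chr15:88862058-88862067).
Pim1 (chr17:29490535-29490752, plus strand): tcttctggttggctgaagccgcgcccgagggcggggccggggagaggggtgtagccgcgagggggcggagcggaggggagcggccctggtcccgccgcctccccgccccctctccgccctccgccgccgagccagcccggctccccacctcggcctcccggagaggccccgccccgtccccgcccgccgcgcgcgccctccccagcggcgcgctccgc
Pim2 (chrX:7878056-7878261, plus strand): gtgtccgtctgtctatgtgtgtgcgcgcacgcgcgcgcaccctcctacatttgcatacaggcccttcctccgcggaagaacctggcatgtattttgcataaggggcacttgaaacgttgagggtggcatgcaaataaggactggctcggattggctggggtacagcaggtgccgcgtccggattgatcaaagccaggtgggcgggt
The Pim1 stretch has 32 CG pairs in 218 bases and a GC content of 83.0%, and the Pim2 stretch 15 in 206 bases and 58.3%.

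Socs1 was the one gene of the 8 whose log2 values spanned over 1 between its highest and lowest library (1.29), as 22.9% of all genes tested did. The 3 genes whose centred log2 values over the 7 libraries were nearest to those of Socs1, among 9443 genes with a mean of at least 50, were Slco4a1, Bcam and Myc, with root mean square differences of 0.156, 0.157 and 0.162. Myc, which encodes a growth-promoting transcription factor, had 1249, 1549 and 2394 normalized counts in the FcCD70 libraries numbered 1 to 3, against 1438, 1379, 2466 and 2014 in the untreated libraries numbered 1 to 4. It was found by its likeness to Socs1, so its high values in the libraries numbered 3 or 4 are no further observation.

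Genes upstream of STAT5 did not pass the test over all 7 libraries. Of 14 receptor and kinase genes listed, 13 had a row and were tested, 0 passed, 5 lay above 0 and 8 below, with a median of -0.03 on the log2 scale. The gene of the alpha chain of the IL-2 receptor, Il2ra, lay lowest in that list at -0.26 (95% interval -0.59 to 0.08). Its FcCD70 library was the lower one in 3 of 3 pairs (9.61% of all genes tested), as was that of Il4ra. Il7r, the IL-7 receptor chain, had the highest value among those with a mean of at least 50, 0.42 (95% interval 0.14 to 0.70, unadjusted p = 0.00771, limma adjusted p = 0.9998). It was higher with FcCD70 in 3 of 3 pairs (9.03% of all genes tested). With both libraries numbered 2 left out of the block fit Il7r passed, at 0.46 (limma adjusted p = 1.65e-05). Its values, 6783 to 10760 normalized counts with FcCD70 and 5211 to 7576 untreated, overlapped.

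Other STAT genes and the chains of the IL-6 and oncostatin M receptors had 7 tested members of 9, with 0 passing, 3 above 0 and 4 below, and a median of -0.06. Il6st had the lowest value of that list, -0.19 (95% interval -0.56 to 0.17). It was lowest in the FcCD70 library numbered 2, at 3534 normalized counts. Of 14 other brakes on JAK and STAT, among them the remaining SOCS genes, the PIAS genes and phosphatases, 0 passed, 5 lay above 0 and 9 below, and the median was -0.02. Ptpn2, a phosphatase of JAK and STAT proteins, had 0.13 (95% interval -0.20 to 0.46) and Ptprc, which encodes CD45, -0.11 (95% interval -0.53 to 0.32).

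Of 18 other genes that STAT5 is known to act on in T cells 0 passed, 9 lay above 0 and 9 below, and the median was 0.0059. The survival genes Bcl2 and Bcl2l1 were lower in 3 of 3 pairs each (9.61% of all genes tested) and had the smallest p-values there. Their log2 fold changes were -0.33 (95% interval -0.63 to -0.02, unadjusted p = 0.0383) and -0.35 (95% interval -0.66 to -0.04, unadjusted p = 0.0325), with a limma adjusted p of 0.9998 for each. The Bcl2l1 groups did not overlap (684 to 766 normalized counts with FcCD70 and 873 to 956 untreated), as was so for 2.53% of all genes tested. Icos (7906 to 8913 against 9221 to 10146) and Tnfrsf9 (1393 to 1605 against 1630 to 2079) of that list did not overlap either. Both were also lower with FcCD70 in 3 of 3 pairs, as were Ccnd2 and Il2ra of that list. Bcl2 overlapped between the groups and was higher in the libraries numbered 3 or 4 (7165 to 9166) than in those numbered 1 or 2 (3747 to 5714). Myc, Ccnd2, Ccnd3 and Gzmb of that list were higher there without overlap too, as were 11.1% of all genes tested. Prdm1, which encodes the effector factor BLIMP-1, had the highest value of that list among those with a mean of at least 50, 0.21 (95% interval -0.27 to 0.69). Foxp3 itself had -0.29 (unadjusted p = 0.208).

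Of 12 genes whose proteins PIM kinases are known to phosphorylate 0 passed, 7 lay above 0 and 5 below, and the median was 0.01. Eif4ebp1, a repressor of translation, had 0.11 (95% interval -0.28 to 0.51), and Cdc25c, a phosphatase of cell cycle entry into mitosis, had -0.30 (95% interval -0.90 to 0.30). Cdc25c, with 54.0 to 68.0 normalized counts in the libraries numbered 3 or 4 and 105 to 165 in those numbered 1 or 2, followed the markers of dividing cells. Of all genes tested, 11.1% were lower in the libraries numbered 3 or 4 without overlap.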

How the data were processed

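Messenger RNA libraries came from a TruSeq kit that keeps strand, as the labels' protocols state. The submitters' processing notes name TopHat2, SAMtools, HTSeq, DESeq2 and GRCm38.p4, with no role or order. The deposited library columns are a signal: read counts that the authors divided by 1 size factor per library (100% of values within 0.01 of a whole multiple of 1 step, so reads were recovered). The deposited log2 fold change, its standard error, the Wald score and the p-values are the authors' DESeq2 results, per the file headers, coded untreated minus FcCD70. The sample titled FcCD70 and numbered 4 has no column and is not analysed here.

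The normalized counts on the log2(value + 1) scale were tested in limma 3.58.1 with a mean-variance trend, for genes with a mean of at least 10, with the replicate number as a block because the table is named as paired (2 residual degrees of freedom), and Benjamini-Hochberg adjustment over all genes at 0.05. Reads went to edgeR (4.0.16) and DESeq2 (1.42.0) as alternatives. The limma, edgeR and DESeq2 fits with the block were checked on simulated data. Those data held no difference by replicate number and no outlying library, so the check cannot show how the fits handle either. Named genes are the 8 genes, then from each list those with an unadjusted p under 0.05 and the largest value in each direction (mean of at least 50), and the 3 genes nearest in pattern to any member spanning over 1 on the log2 scale. Foxp3, Il2ra and Cd27 serve as checks. Single values of some genes that this rule or the marker lists hold are not reported here. Il2rb, Il2rg, Il4ra, Il9r, Il15ra, Jak1, Jak2, Jak3 and Stat3 were picked with their values in view. So were Icos, Tnfrsf9, Ccnd2, Ccnd3, Gzmb, Osmr, Ighm and the other named markers of other cells. The members and lists were chosen with earlier results of these data known. Positions and lengths are from GENCODE M21 (GRCm38). The precision is that of 3 and 4 libraries. Limits of detection cover counting error alone.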

Additional observations from a re-analysis of the deposited data

How the results depend on the processing

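Of the 8 fold changes, only that of Socs1 turned sign under another pseudocount, filter, scaling, covariate or count test, to 0.077 with the covariate for numbers 3 and 4, and none crossed the threshold. DESeq2 called 1 gene, against 0 in limma. Without the replicate block 0 genes passed (120 at an unadjusted p under 0.05) and Pim2 had -0.22 on the log2 scale. The numbers need not pair the samples: same-numbered deviations from the group means had correlations of 0.30, 0.01 and 0.43 for numbers 1, 2 and 3. Leaving out a library or a number gave 0 to 19 called genes (19 without number 2, 6 without number 3, both with the block). The covariate fit without FcCD70 2 called 6. Log2 fold changes then ran from -0.37 to -0.06 for Pim2, -0.43 to 0.05 for Cish, -0.45 to 0.15 for Socs1, -0.08 to 0.09 for Socs3, -0.26 to 0.08 for Pim1, -0.23 to 0.12 for Pim3, -0.21 to 0.03 for Osm and -0.13 to 0.02 for Stat5b. Pim2 alone kept its sign in these 12 fits. Signs turned without number 1 (Socs1 0.083, Pim1 0.066, Pim3 0.065, Osm 0.0044) and without number 3 (Pim3 0.12), with the block. They turned without FcCD70 1 (Socs1 0.14, Pim1 0.080, Pim3 0.069, Osm 0.030), without FcCD70 2 with or without the covariate (Stat5b 0.016, Cish 0.047, Socs1 0.062, Osm 0.0030), without FcCD70 3 (Socs3 -0.083), without untreated 2 (Socs3 -0.071) and without untreated 3 (Socs1 0.15, Pim3 0.028, Osm 0.00031). The cause of these reversals was not tested.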
